A study of Mus musculus with 12 samples.

Results

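CircRNAs from chromatin enzymes, remodellers and their partners were followed in 4 mouse cell lines. The hosts were chosen by symbol alone: the Kdm, Kmt2, Setd, Smarc, Chd, Brd, Hdac, Baz, Ino80, Phf and Ncoa genes that the tables name as the only host of a circRNA, with Kdm6a left out. This gave 70 of the 4455 single hosts in the series, of which 69 had reads. A symbol is not a function, and some of the 70 act mainly outside chromatin: Setd3 is known to methylate actin and Hdac6 to deacetylate tubulin.

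Chromatin proteins work as writers, erasers and readers of histone marks, and as motors that move or evict nucleosomes. Their genes are long and have many exons. When the splicing machinery joins the end of a later exon back to the start of an earlier one, a closed RNA circle forms, and a read across that back-splice junction identifies it. The level of a circle need not follow that of the linear mRNA, which was not measured here.

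Each line was sequenced in 3 libraries. The mammary pair was 4T1, a breast cancer line, against Eph4-ev, breast epithelial cells. The melanocyte pair was B16F10, a melanoma line, against Melan-a, melanocytes. The labels state no treatment and no other genotype, and total RNA of every library was digested with RNase R, which removes linear RNA. With 1 tumour and 1 non-tumour line in a lineage, the tumour state and other properties of the lines cannot be told apart. The labels do not say that the libraries came from separate cultures, so the p-values measure the spread between libraries, which may be technical.

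Depth was between 15572 and 44625 junction reads in 4T1, 50648 and 56649 in Eph4-ev, 16697 and 20011 in B16F10, and 25072 and 33557 in Melan-a. Levels are given as RPM, which scales each library's junction reads to the same total, so 1 read stood for 17.7 to 64.2 RPM. Of 10 epithelial markers, 4 (Cdh1, Epcam, Esrp1 and Grhl2) had circRNA reads in 4T1 and in Eph4-ev, summing to 1220 to 1748 RPM in 4T1 libraries and 1343 to 1746 RPM in Eph4-ev libraries, while the keratin genes of the list had 0. Of 12 melanocyte markers, 8 had reads in B16F10 (10978 to 12743 RPM) and 9 in Melan-a (5525 to 9476 RPM). The 6 immune markers had 0 reads in every library. Of 8 mesenchymal markers only Zeb1 had reads, at 118 to 177 RPM in Eph4-ev and 0 in the other lines, and its part in the results was not tested. Mitf (0 to 88.3 RPM) and Pecam1 (0 to 36.0 RPM) had reads in Eph4-ev, and Esrp1 (0 to 39.9 RPM) in Melan-a.

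The junctions below are those on which the results turn. The Phf21a circle and the longer Ncoa2 circle are the only ones behind a called difference, for Phf21a in the host sum and the interaction. The shorter Ncoa2 circle was not called and is given for its shared donor site. The others are the dominant circle of the most abundant host in the mammary pair (Setd3), and circles of hosts whose libraries separated in the mammary pair. Each is written 5′ to 3′ in the direction of transcription from GENCODE M21 transcripts (mm10). The lower case letters are the last 15 bases of the last exon, and the capitals are the first 15 bases of the first exon, to which it is joined back. Exons are numbered in the transcript named.
Phf21a, exons 2 to 6 of Phf21a-206, chr2:92214049-92230724, plus strand, 396 bases: ttgagtgagaaacagGGGACTGGAGAGCTG
Ncoa2, exons 2 to 4 of Ncoa2-201, chr1:13221307-13286025, minus strand, 335 bases: agatcaaagagcaagATTTTCCTCGCATCT
Ncoa2, exons 3 to 4 of Ncoa2-201, chr1:13221307-13224713, minus strand, 278 bases: agatcaaagagcaagTTGCTGATATGTGTT
Setd3, exons 2 to 6 of Setd3-201, chr12:108157754-108165172, minus strand, 682 bases: tataaagtcatccagTCAGAAAATGGGTAA
Chd2, exons 3 to 5 of Chd2-203, chr7:73514090-73519708, minus strand, 381 bases: gcagctgaaaaaacaTCGTTCAGCTTCTGA
Kdm1a, exons 3 to 8 of Kdm1a-203, chr4:136568573-136577204, minus strand, 590 bases: gccaatggacaagctGTGTGGAGGGTGCAG
Kdm1a, exons 2 to 3 of Kdm1a-203, chr4:136577071-136593130, minus strand, 300 bases: atcaggaatcgcacaGTAGAATACAGAGAA
Baz1a, exon 3 of Baz1a-205, chr12:54975104-54975382, minus strand, 279 bases: gaacaatggcacaagTGACTTTTTTGAACG
Both Ncoa2 circles open with the same lower case letters because they use the same donor site at the end of exon 4, and they differ only in the exon it is joined to. The Phf21a, Ncoa2 and Setd3 circles run across the annotated start codon, and the others lie within coding sequence. The Baz1a circle is 1 coding exon joined to itself, shown whole as an example of what a circle of these genes contains: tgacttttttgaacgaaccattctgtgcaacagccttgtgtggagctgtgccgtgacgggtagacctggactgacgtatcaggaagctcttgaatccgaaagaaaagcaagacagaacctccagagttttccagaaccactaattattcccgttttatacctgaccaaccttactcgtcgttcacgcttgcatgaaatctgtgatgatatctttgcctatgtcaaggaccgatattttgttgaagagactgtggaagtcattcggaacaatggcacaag

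The hosts gave 267 circRNAs with reads, 131 of them with reads in both lineages. Reads were found for 64 of the hosts and 193 circRNAs in the mammary libraries, and for 62 hosts and 205 circRNAs in the melanocyte libraries. Brd2 had 0 reads in every library. A host gave a median of 3 circRNAs, against 2 over all single hosts, and Chd2 gave the most (15), followed by Smarcc1 (12) and Baz1b (11). The circles had a median of 3 exons, as over all hosts, and a median exonic length of 468 bases against 480. Of the 259 circles that matched exon boundaries, 53 (20.5%) ran across the start codon, against 14.7% over all hosts, and 204 (78.8%) were coding only, against 83.4%. A first exon numbered 2 was found in 25.5% of them, against 33.1% over all hosts. Among the coding-only circles, 82 (40.2%) had a length that is a multiple of 3, as an endless reading frame needs, against 38.9% over all hosts. These are descriptions of the annotation of the circles and were given no test.

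The chromatin circles took a small and even part of the mammary libraries. They held 1.92%, 1.92% and 1.87% of the single-host junction reads in 4T1, against 1.54%, 1.54% and 1.45% in Eph4-ev. The groups did not overlap, with means of 1.90% ± 0.0305 for 4T1 and 1.51% ± 0.0498 for Eph4-ev (SD, n = 3 each; exact two-sided permutation p = 0.1, the smallest that 3 against 3 allows). Without the Phf21a circle of exons 2 to 6, an alternative chosen after seeing the data, 4T1 replicate 2 held 1.54%, and the groups overlapped (exact permutation p = 0.2). In the melanocyte pair the share was 3.24%, 1.44% and 1.35% in B16F10, against 2.95%, 3.63% and 1.55% in Melan-a (exact permutation p = 0.5). Libraries of the same line thus lay further apart than the lines. That spread was carried by the same Phf21a circle: without it the shares were 1.76%, 1.44% and 1.35% in B16F10, against 1.49%, 1.79% and 1.55% in Melan-a.

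**Figure D1:**
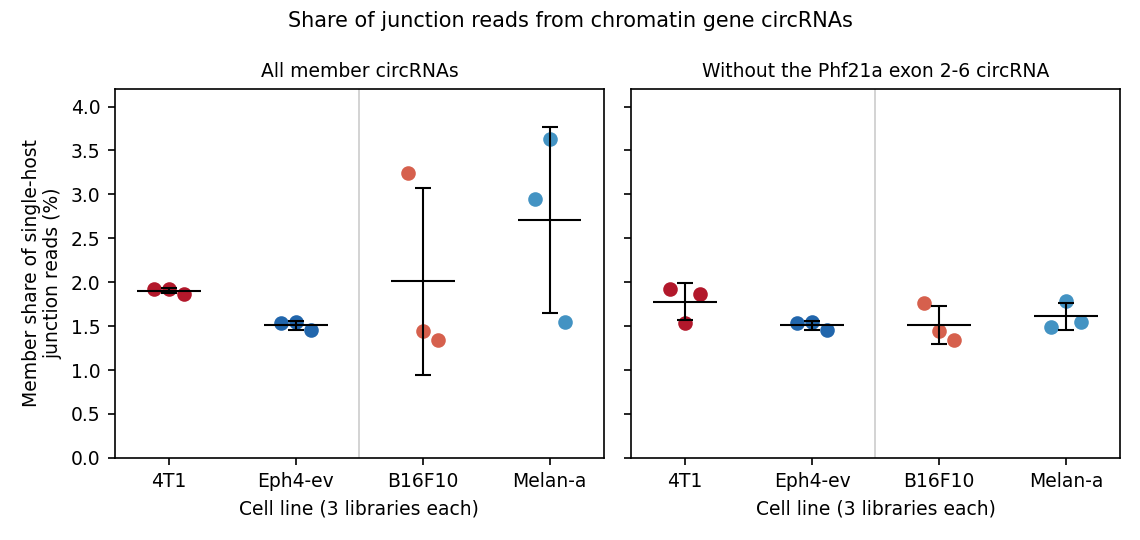
Share of single-host junction reads (percent, y axis) that came from chromatin gene circRNAs, per cell line (x axis); points are libraries, and bars are the mean and SD of 3. With all circles (left) the B16F10 and Melan-a libraries spread from 1.35% to 3.63%, and without the Phf21a circle (right) they lie between 1.35% and 1.79%.

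Few of the chromatin hosts differed between the lines. Reads were summed per host and tested with edgeR over every host of a table, and differences are log2 values of the tumour line minus the non-tumour line. Of 35 chromatin hosts that passed the filter on low counts in the mammary pair, 1 was higher in 4T1 (Phf21a) and 0 were lower, where 17.5% of all 1515 hosts tested were called (6.86% higher and 10.6% lower). At an unadjusted edgeR p under 0.05 there were 9, against 472 of the 1515 hosts. DESeq2 called 0 of the 35, and 96 of all hosts higher and 149 lower. Limma-voom called 5 of the 35 higher and 1 lower, and 146 of all hosts higher and 194 lower. The median log2 difference was 0.02 over the chromatin hosts (-0.01 with RLE factors and 0.15 with total-read scaling) and -0.09 over all hosts, with 18 of the 35 positive. Precision was alike in this pair, with a median SE of 0.70 on 69 reads per chromatin host against 0.80 on 65 reads over all hosts.

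In the melanocyte pair 0 of 21 tested chromatin hosts were called in either direction by edgeR, DESeq2 or limma-voom, where edgeR called 7.13% of all 898 hosts (2.78% higher and 4.34% lower). At an unadjusted edgeR p under 0.05 there was 1, Ncoa2, against 190 of the 898 hosts. The median log2 difference was 0.29 over the chromatin hosts, of which 14 were positive, and -0.00 over all hosts. Here the chromatin hosts were measured less precisely, with a median SE of 0.68 on 52 reads against 0.57 on 64 reads over all hosts. At the level of single circles, 0 of 37 tested were called in the mammary pair. There 17.4% of all 1869 circRNAs were called (5.99% higher and 11.4% lower). An unadjusted edgeR p under 0.05 was found for 4 of the 37, against 561 of the 1869 circRNAs. DESeq2 called 0 of the 37, and 115 of all circRNAs higher and 189 lower. Limma-voom called 1 of the 37 higher and 1 lower, and 180 of all circRNAs higher and 274 lower. In the melanocyte pair 1 of 13 tested circles was called lower, of Ncoa2, where 10.9% of all 874 circRNAs were called (5.03% higher and 5.84% lower). Whether the chromatin hosts were called less often than other hosts was not tested.

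**Figure D2:**
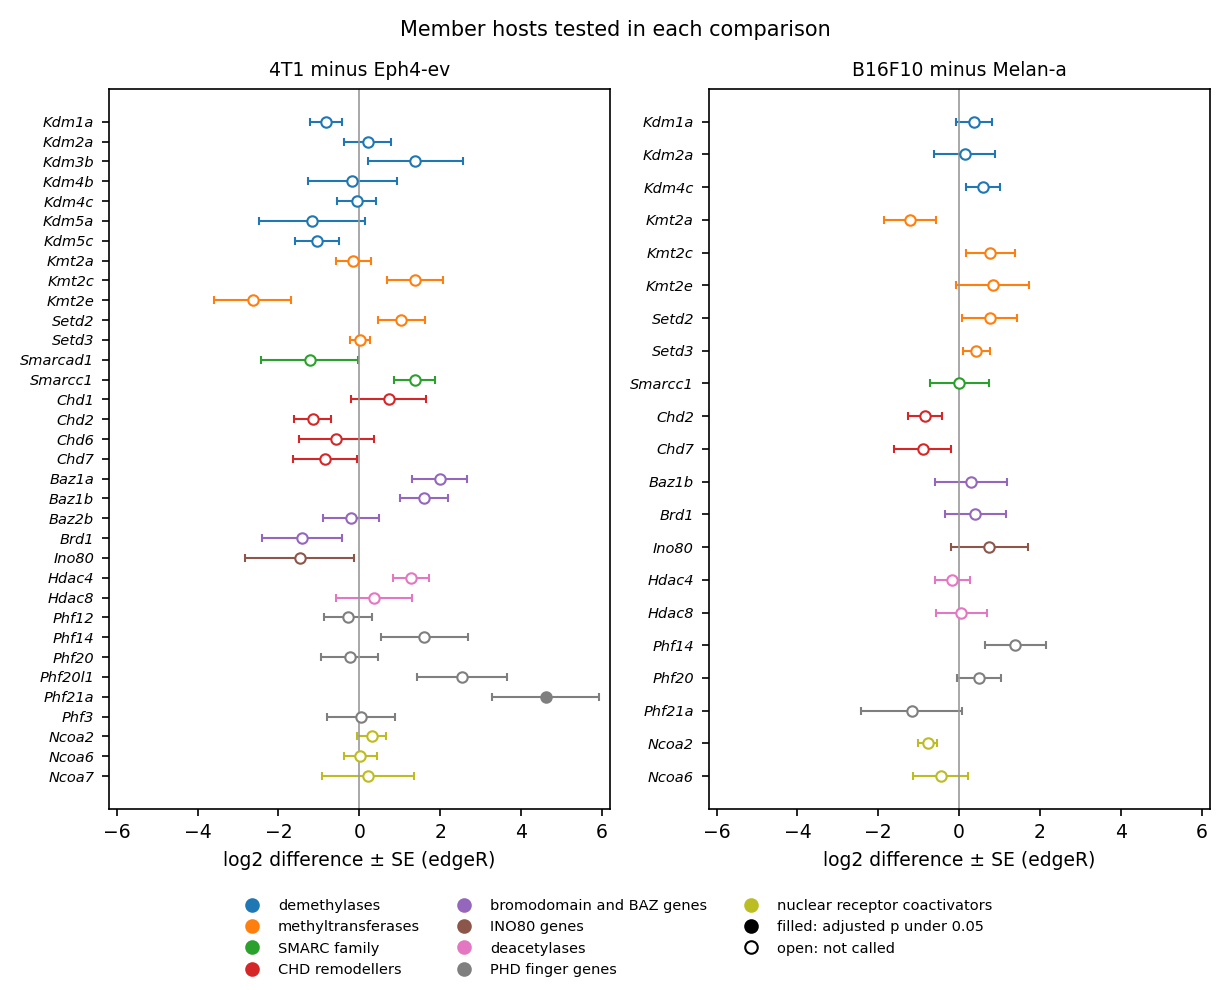
Log2 difference ± SE from edgeR (x axis) of the chromatin hosts tested, all but 1 shown on the left and all on the right, 4T1 minus Eph4-ev (left) and B16F10 minus Melan-a (right), coloured by family. The only filled point, for an adjusted p under 0.05, is Phf21a in the mammary pair (4.62 ± 1.32). The open points shown run from -2.63 (Kmt2e) to 2.53 (Phf20l1) in the mammary pair. In the melanocyte pair they run from -1.22 (Kmt2a) to 1.39 (Phf14).

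Of the Kmt2 and Setd genes, Kmt2a, Kmt2c, Kmt2e, Setd2 and Setd3 were tested in both pairs and none was called in either. Setd3 was the most abundant chromatin host of the mammary pair. It had 54, 33 and 143 reads in 4T1, against 154, 137 and 126 in Eph4-ev, which is 2844 ± 862 RPM in 4T1 and 2576 ± 410 RPM in Eph4-ev (SD, n = 3 each; log2 difference 0.02, SE 0.25, edgeR adjusted p = 0.976). The lines overlapped, and 96.8% of these reads came from the single circle of exons 2 to 6. Setd3 had 44, 38 and 25 reads in B16F10, against 32, 63 and 24 in Melan-a (melanocyte log2 difference 0.42, SE 0.33, edgeR adjusted p = 0.507), again almost all from that circle (97.3%).

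Kmt2a, which methylates histone tails at active promoters, made 89.3% of its mammary reads and 90.8% of its melanocyte reads from a circle of exons 19 to 20. Its counts were 12, 9 and 41 reads in 4T1, against 32, 63 and 30 in Eph4-ev (log2 difference -0.15, SE 0.43, edgeR adjusted p = 0.854). In B16F10 it had 6, 10 and 1 reads, against 8, 27 and 24 in Melan-a (log2 difference -1.22, SE 0.65, edgeR adjusted p = 0.316). Both pairs overlapped. Kmt2e, a relative of Kmt2a with weak or no enzymatic activity of its own, had 0, 1 and 3 reads in 4T1, against 17, 19 and 11 in Eph4-ev. Its lines did not overlap, and the log2 difference of -2.63 (SE 0.95) missed the threshold (edgeR adjusted p = 0.0695). There were 3, 5 and 6 Kmt2e reads in B16F10, against 1, 9 and 2 in Melan-a, an overlap (log2 difference 0.83, SE 0.90, edgeR adjusted p = 0.67). Setd2, which methylates histones along transcribed genes, had log2 differences of 1.03 (SE 0.58) and 0.76 (SE 0.68) in the mammary and melanocyte pairs, and Kmt2c of 1.37 (SE 0.70) and 0.77 (SE 0.61).

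Among the erasers, 7 Kdm demethylases were tested in the mammary pair, 2 with positive and 5 with negative differences, and 3 in the melanocyte pair, all positive. None was called, and the smallest edgeR adjusted p was 0.18. It belonged to Kdm1a, a demethylase of corepressor complexes, with 6, 10 and 27 reads in 4T1 against 46, 48 and 46 in Eph4-ev. That is 518 ± 117 RPM in 4T1 and 861 ± 41.8 RPM in Eph4-ev (SD, n = 3 each), without overlap in RPM (log2 difference -0.82, SE 0.40). Its main circles had differences of opposite sign. The circle of exons 3 to 8 had 1, 7 and 17 reads in 4T1, against 31, 32 and 38 in Eph4-ev (log2 difference -1.26, SE 0.57, edgeR adjusted p = 0.162). The circle of exons 2 to 3 had 4, 3 and 10 reads in 4T1, against 3, 4 and 1 in Eph4-ev (log2 difference 1.85, SE 0.92, edgeR adjusted p = 0.201). Among the melanocyte lines, Kdm1a had 19, 9 and 11 reads in B16F10, against 12, 13 and 18 in Melan-a, and the lines overlapped (log2 difference 0.36, SE 0.45, edgeR adjusted p = 0.727).

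Kdm7a, a demethylase with a PHD finger, had reads in Melan-a but not in B16F10: 0, 0 and 0 reads in B16F10, against 2, 8 and 2 in Melan-a, all from the circle of exons 4 to 9. Against a floor of 3 counts over the B16F10 libraries, and with the Melan-a reads taken as counted, this is 2.56-fold lower in B16F10. The Kdm7a reads were too few for the test. Kdm7a was near the detection limit in the mammary pair too, with 7, 0 and 0 reads in 4T1, against 1, 0 and 2 in Eph4-ev.

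Of the deacetylases, which remove acetyl groups from histones and other proteins, Hdac4 and Hdac8 were tested in both pairs. Hdac4, which shuttles between nucleus and cytoplasm, had 12, 31 and 52 reads in 4T1, against 15, 19 and 41 in Eph4-ev. That is 1228 ± 492 RPM in 4T1 and 457 ± 245 RPM in Eph4-ev (SD, n = 3 each), without overlap in RPM, but the log2 difference of 1.29 (SE 0.45) missed the threshold (edgeR adjusted p = 0.0621). The reads were spread over 6 circles. One that joins exons 2 to 3 (chr1:92054901-92148494) had 0, 10 and 17 reads in 4T1, against 0, 0 and 1 in Eph4-ev, and was not tested. Hdac4 had 17, 10 and 9 reads in B16F10, against 13, 31 and 16 in Melan-a, and the lines overlapped (log2 difference -0.17, SE 0.43, edgeR adjusted p = 0.869). Hdac8 had log2 differences of 0.37 (SE 0.95) and 0.05 (SE 0.63) in the mammary and melanocyte pairs. Hdac9, a close relative of Hdac4, was listed in the melanocyte table only, with 0, 0 and 0 reads in B16F10, against 5, 9 and 5 in Melan-a. With the floor of 3 counts, and the Melan-a reads taken as counted, this is 4.06-fold lower in B16F10. The Hdac9 reads fell on 3 circles that end at the same exon 11 and start at exon 2, 3 or 4, each seen in 1 or 2 libraries.

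Among the remodellers, the helicases and their partners that slide or evict nucleosomes, none was called. Chd2 was their most abundant host in both pairs. It had 12, 3 and 30 reads in 4T1, against 70, 45 and 67 in Eph4-ev, which is 537 ± 323 RPM in 4T1 and 1128 ± 302 RPM in Eph4-ev (SD, n = 3 each; log2 difference -1.16, SE 0.46, edgeR adjusted p = 0.0956). Chd2 had 9, 8 and 7 reads in B16F10, against 15, 29 and 20 in Melan-a, which is 447 ± 26.6 RPM in B16F10 and 752 ± 138 RPM in Melan-a (SD, n = 3 each; log2 difference -0.85, SE 0.43, edgeR adjusted p = 0.281). In both pairs the tumour libraries lay below all libraries of the other line in RPM. The circle of exons 3 to 5 gave 71.4% of the mammary reads and 62.5% of the melanocyte reads. Chd7, the gene of CHARGE syndrome in humans, had log2 differences of -0.84 (SE 0.79) in the mammary and -0.90 (SE 0.71) in the melanocyte pair.

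The reads of Chd7 are given for 2 of its circles. The circle of its large second exon, which is 1825 bases long, had 0, 0 and 2 reads in 4T1, against 7, 7 and 7 in Eph4-ev (log2 difference -2.54, SE 1.17, edgeR adjusted p = 0.169), and 0, 0 and 1 reads in B16F10, against 14, 5 and 7 in Melan-a, where it was not tested. The circle of exons 4 to 7 had 2, 2 and 7 reads in 4T1, against 14, 5 and 1 in Eph4-ev, and 6, 2 and 2 reads in B16F10, against 0, 0 and 0 in Melan-a. The share of the exon 4 to 7 circle in the mammary reads of these circles averaged 92.6% in 4T1 and 40.3% in Eph4-ev (n = 3 each, two-sided exact permutation p = 0.1, the smallest it can give, Benjamini-Hochberg adjusted p = 0.4 over 10 such comparisons), and Chd7 was named after its values were seen.

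Smarcc1, a core subunit of SWI/SNF complexes, had 10, 12 and 36 reads in 4T1, against 10, 16 and 15 in Eph4-ev. The log2 difference of 1.37 (SE 0.51) missed the threshold (edgeR adjusted p = 0.0777), with no overlap in RPM. It had 15, 2 and 2 reads in B16F10, against 10, 13 and 4 in Melan-a (log2 difference 0.01, SE 0.73). Ino80, the motor of the complex of that name, was tested in both pairs, with log2 differences of -1.48 (SE 1.35) in the mammary and 0.75 (SE 0.96) in the melanocyte pair.

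Of the bromodomain and Baz genes, which read acetylated histones or partner the ISWI motors, 5 were tested in the mammary and 2 in the melanocyte pair, and none was called. Baz1a, the partner of the ISWI motor in the ACF and CHRAC complexes, had 14, 6 and 25 reads in 4T1, against 3, 7 and 12 in Eph4-ev. That is 599 ± 282 RPM in 4T1 and 133 ± 78.8 RPM in Eph4-ev (SD, n = 3 each), and the log2 difference was 1.99 (SE 0.68, edgeR adjusted p = 0.0562). The groups did not overlap in RPM. The exon 3 circle printed above gave 76.1% of the mammary Baz1a reads. Baz1b, a relative of Baz1a named for Williams syndrome, had a log2 difference of 1.60 (SE 0.60, edgeR adjusted p = 0.0815).

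The melanocyte lines held few Baz1a reads, with 4, 1 and 1 in B16F10, against 2, 7 and 7 in Melan-a, too low for the test. The exon 3 circle, the main one in the mammary lines, had 0, 0 and 1 reads in B16F10, against 0, 0 and 1 in Melan-a. Most melanocyte reads of Baz1a came from another circle (68.2%).

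**Figure D3:**
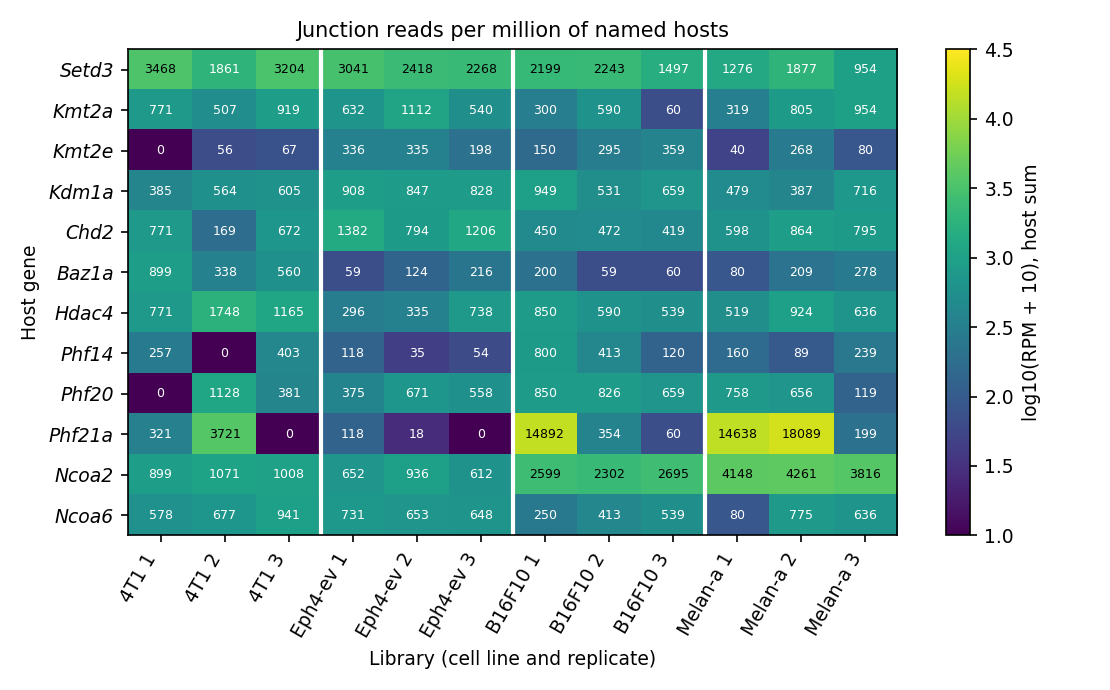
Host sums of junction reads in RPM (number in each cell; colour is log10 of RPM + 10) for the chromatin hosts that the text follows (rows) in the 12 libraries (columns), with white lines between cell lines. Phf21a varies most among libraries of the same line, and Ncoa2 is higher in the B16F10 and Melan-a libraries than in the 4T1 and Eph4-ev libraries, which come from a separate table.

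Of the PHD finger genes, a diverse set that shares a fold reading histone tails, 6 were tested in the mammary and 3 in the melanocyte pair. Phf21a, a reader of unmethylated histone tails in the complex of the Kdm1a demethylase, was the only chromatin host called. It had 5, 66 and 0 reads in 4T1, against 6, 1 and 0 in Eph4-ev, with a log2 difference of 4.62 (SE 1.32, edgeR adjusted p = 0.0262). The lines overlapped, since 4T1 replicate 3 had no read, and the call rested on 4T1 replicate 2. Without that library the log2 difference was 1.37 (edgeR adjusted p = 0.692). The call was also lost without Eph4-ev replicate 2 (0.24) or 3 (0.104), with DESeq2 (adjusted p = 0.218) and with limma-voom (adjusted p = 0.584).

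All 66 reads of 4T1 replicate 2 came from the circle of exons 2 to 6, which had 0, 66 and 0 reads in 4T1, against 0, 0 and 0 in Eph4-ev. The same circle had 289, 0 and 0 reads in B16F10, against 358, 607 and 0 in Melan-a. It made 45.7% of all chromatin gene reads in B16F10 replicate 1, 49.2% and 50.7% in Melan-a replicates 1 and 2, and 19.8% in 4T1 replicate 2. In the other 8 libraries it had no read. Such a pattern was rare: of the circRNAs with at least 50 reads in a library, 3 of 141 (2.13%) had 0 reads in another 4T1 library, 3 of 225 (1.33%) in Eph4-ev, 1 of 37 (2.7%) in B16F10 and 2 of 103 (1.94%) in Melan-a. The Phf21a circle was the only one of a chromatin host among them and the 1 in B16F10. Other Phf21a circles were low. Exons 4 to 6, with the same donor site, gave 5, 0 and 0 reads in 4T1, against 6, 1 and 0 in Eph4-ev, and 5, 4 and 1 in B16F10, against 0, 0 and 0 in Melan-a. The circle of exons 13 to 15 gave 4, 2 and 0 reads in B16F10, against 9, 0 and 5 in Melan-a. At host level the melanocyte log2 difference was -1.17 (SE 1.25, edgeR adjusted p = 0.668), and without any 1 library it lay between -5.73 and -0.57. It passed the threshold without B16F10 replicate 1 (-5.73, edgeR adjusted p = 0.0246) and with no filter on low counts (-1.12, 0.000733).

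The other PHD finger genes gave no call. Phf20, a reader in a histone acetyltransferase complex, had 17, 14 and 11 reads in B16F10, against 19, 22 and 3 in Melan-a (log2 difference 0.50, SE 0.55, edgeR adjusted p = 0.681). In the mammary pair it had 0, 20 and 17 reads in 4T1, against 19, 38 and 31 in Eph4-ev (log2 difference -0.24, SE 0.70). Phf14 had 16, 7 and 2 reads in B16F10, against 4, 3 and 6 in Melan-a (log2 difference 1.39, SE 0.76, edgeR adjusted p = 0.329). Its mammary log2 difference was 1.61 (SE 1.07). Phf20l1, the paralog of Phf20, had 7, 4 and 11 reads in 4T1, against 6, 1 and 0 in Eph4-ev (log2 difference 2.53, SE 1.11, edgeR adjusted p = 0.13).

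The Ncoa genes encode coactivators that join nuclear receptors to histone acetyltransferases. Ncoa2, of the p160 family, had the smallest p of the chromatin hosts in the melanocyte pair. In the melanocyte pair it had 52, 39 and 45 reads in B16F10, against 104, 143 and 96 in Melan-a, which is 2532 ± 205 RPM in B16F10 and 4075 ± 231 RPM in Melan-a (SD, n = 3 each). The groups did not overlap, and the log2 difference of -0.78 (SE 0.24) missed the threshold at host level (edgeR adjusted p = 0.0611). In the mammary pair it had 14, 19 and 45 reads in 4T1, against 33, 53 and 34 in Eph4-ev, an overlap in RPM (log2 difference 0.30, SE 0.36, edgeR adjusted p = 0.623).

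Its circle of exons 2 to 4 was lower in B16F10, with 43, 23 and 28 reads in B16F10 against 95, 125 and 86 in Melan-a. That is 1728 ± 398 RPM in B16F10 and 3644 ± 198 RPM in Melan-a (SD, n = 3 each; log2 difference -1.13, SE 0.29, edgeR adjusted p = 0.0241). The call was lost with no filter (edgeR adjusted p = 0.0938), without B16F10 replicate 1 (0.0685), 2 (0.176) or 3 (0.129) and without Melan-a replicate 1 (0.0615), while the log2 difference stayed between -1.34 and -0.95 without any 1 library. In the mammary pair the same circle had 4, 9 and 35 reads in 4T1, against 11, 10 and 9 in Eph4-ev (log2 difference 1.33, SE 0.61, edgeR adjusted p = 0.168). Its 4T1 libraries all lay above those of Eph4-ev in RPM.

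The companion circle of exons 3 to 4, with the same donor site, had 9, 12 and 17 reads in B16F10, against 9, 16 and 8 in Melan-a (log2 difference 0.80, SE 0.48, edgeR adjusted p = 0.341). In the mammary pair it had 10, 10 and 8 reads in 4T1, against 21, 43 and 25 in Eph4-ev (log2 difference -0.59, SE 0.56, edgeR adjusted p = 0.541). The share of the exon 2 to 4 circle in the reads of the pair was 82.7%, 65.7% and 62.2% in B16F10, against 91.3%, 88.7% and 91.5% in Melan-a. These groups did not overlap (exact two-sided permutation p = 0.1, the smallest that 3 against 3 allows). In the mammary pair the share was 28.6%, 47.4% and 81.4% in 4T1, against 34.4%, 18.9% and 26.5% in Eph4-ev, with an overlap (exact permutation p = 0.2). The longer circle thus made most of the pair in both melanocyte lines and in 1 of the 6 mammary libraries. The share of a host's main circle was compared between lines in 10 cases, this pair included as a share of all Ncoa2 reads, and the smallest Benjamini-Hochberg adjusted permutation p was 0.4.

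**Figure D4:**
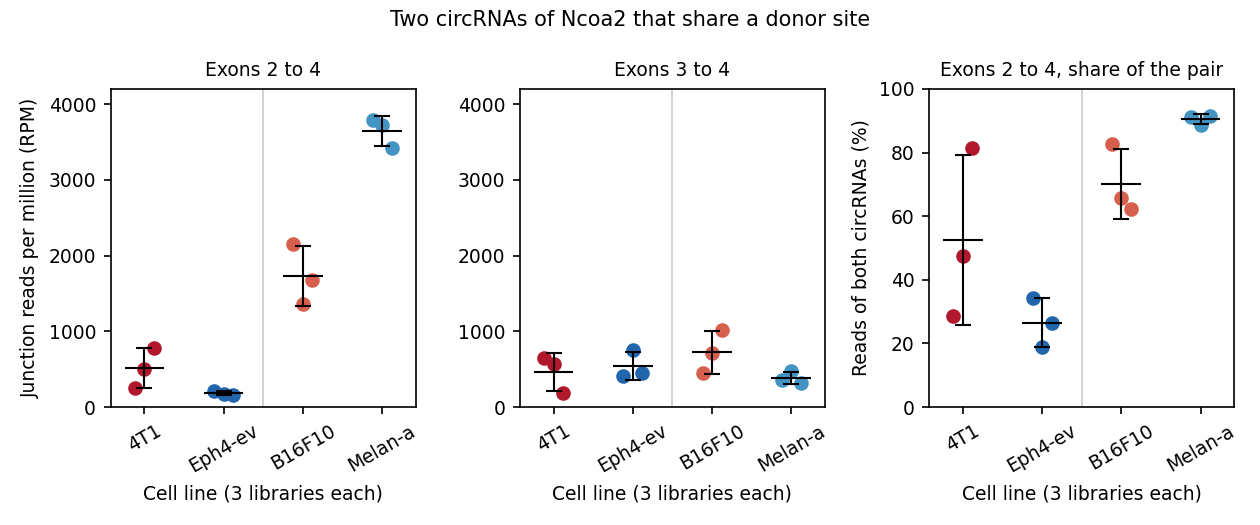
RPM of the Ncoa2 circle of exons 2 to 4 (left) and of exons 3 to 4 (middle), and the percent of their joint reads that came from exons 2 to 4 (right), per cell line; points are libraries, and bars are the mean and SD of 3. The longer circle averages 1728 RPM in B16F10 and 3644 RPM in Melan-a, and its 4T1 libraries lie above the Eph4-ev libraries.

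Ncoa6, a coactivator found with Kmt2-type methyltransferases, had 9, 12 and 42 reads in 4T1, against 37, 37 and 36 in Eph4-ev, and the lines overlapped (log2 difference 0.03, SE 0.40, edgeR adjusted p = 0.973). The melanocyte lines had 5, 7 and 9 reads in B16F10, against 2, 26 and 16 in Melan-a (log2 difference -0.45, SE 0.68, edgeR adjusted p = 0.78).

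Whether a host's difference itself differed between the lineages was tested as an interaction over all 12 libraries, mammary difference minus melanocyte difference. At host level 0 of 32 chromatin hosts were called by edgeR, by DESeq2 or by limma-voom. EdgeR called 10.5% of all 1282 hosts (4.29% more positive and 6.16% more negative). An unadjusted edgeR p under 0.05 was found for 6 of the 32, against 330 of the 1282 hosts. The smallest p-values were those of Phf21a (5.71, SE 1.98, edgeR adjusted p = 0.0622), Ncoa2 (1.04, SE 0.40, edgeR adjusted p = 0.0913), Kmt2e (-3.51, SE 1.37, edgeR adjusted p = 0.0962) and Baz1a (2.81, SE 1.19, edgeR adjusted p = 0.131). The Phf21a value lay between 2.01 (without 4T1 replicate 2) and 10.3 (without B16F10 replicate 1) when any 1 library was left out, and passed the threshold in 8 of 19 alternatives, 6 of them with 1 library left out (4T1 replicate 1 or 3, Eph4-ev replicate 1, B16F10 replicate 1, or Melan-a replicate 2 or 3). For single circles, a test added after seeing the data, 2 of 27 were called with a more positive mammary difference, where 12% of all 1438 circRNAs were called (4.03% more positive and 7.93% more negative). The Ncoa2 circle of exons 2 to 4 had an interaction of 2.46 (SE 0.55, edgeR adjusted p = 0.00239), which was past the threshold in 18 of 19 alternatives and lost without 4T1 replicate 3 (1.76, adjusted p = 0.07). The other was the Phf21a circle (9.13, SE 2.82, edgeR adjusted p = 0.03). Its size depends on the prior count, since Eph4-ev had no read of it, and without 4T1 replicate 2 it was 1.20 (adjusted p = 1.0).

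Of 74 other chromatin genes among the hosts, 46 were tested in the mammary pair, where 3 were higher and 5 lower in 4T1. In the melanocyte pair 34 were tested, where 1 was higher and 2 lower in B16F10. Over all hosts 17.5% of 1515 were called in the mammary pair (6.86% higher and 10.6% lower). In the melanocyte pair 7.13% of 898 were called (2.78% higher and 4.34% lower). Whether these genes were called more or less often than other hosts was not tested. Ezh2, the enzyme of Polycomb repressive complexes, Asxl2 and Whsc1 were lower in 4T1, with log2 differences of -1.98 (SE 0.22), -1.75 (SE 0.30) and -0.93 (SE 0.25; edgeR adjusted p = 1.56e-05, 0.000948 and 0.0171). The call of Whsc1 was lost without Eph4-ev replicate 1 or 2. Arid1a, a DNA-binding subunit of SWI/SNF and so a partner of Smarcc1, had 0, 1 and 0 reads in B16F10, against 23, 24 and 30 in Melan-a (log2 difference -5.36, SE 0.81, edgeR adjusted p = 0.00147). Named after its values were seen, its mammary pair had 0, 0 and 0 reads in 4T1, against 7, 7 and 14 in Eph4-ev (edgeR adjusted p = 0.039). Its paralog Arid1b had 16, 14 and 20 reads in B16F10, against 44, 87 and 53 in Melan-a (log2 difference -1.30, SE 0.31, edgeR adjusted p = 0.0251), a call lost without any 1 B16F10 library or without Melan-a replicate 3. Ash1l, a histone methyltransferase, was higher in B16F10, with 77, 59 and 54 reads in B16F10 against 32, 43 and 23 in Melan-a (log2 difference 1.50, SE 0.26, edgeR adjusted p = 0.00427).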

How the data were processed

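CircRNA junction reads were analysed in 3 libraries each of 4T1, Eph4-ev, B16F10 and Melan-a. RNase R was used on the total RNA and 2 callers were run, per the labels' protocols: CIRI2, from BWA-MEM, and CIRCexplorer2, from TopHat with TopHat-Fusion. The submitters' processing notes name mm10. They also list DESeq, DESeq2 and edgeR, with no role. On how the callers were combined, the filters and the annotation, nothing is stated (not given in the sources used here).

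Each lineage has a table of its own. The deposited count columns hold raw junction reads. Per the file headers the other columns are RPM, which by their values the authors scaled to the total of the table. Whole reads recovered from RPM matched the counts for 100% of values within 0.01, with a largest difference of 0, so they give the same calls. RPM is relative to the junction reads listed and says nothing of the amount per cell. Fewer circles of a gene and more of others cannot be told apart. Columns with per-sample values but no sample numbered 0.

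Counts were summed per host over circRNAs with 1 host. In each lineage 1 circRNA names a chromatin gene together with another host, and it was left out. Each pair was tested over its whole table with the quasi-likelihood F test of edgeR 4.0.16 (TMM normalisation, a filterByExpr count minimum of 5 and total of 10, Benjamini-Hochberg) in R 4.3.3, called at an adjusted p under 0.05. The interaction used all 12 libraries. SE comes from the F statistic. Floors are 3 counts over the 3 libraries of a line, scaled by total reads without TMM. Floors cover counting error only, since the labels mention no molecular identifiers. They cover it on the side without reads alone, and the reads of the other line enter as counted. For single values of a library, exact permutation tests (two-sided, scipy 1.17.1) were used. Exons come from GENCODE M21, the annotation of the same build. Coordinates are 1-based, as deposited.

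Hosts named are those called, the 6 most abundant and the 4 uncalled with the smallest p in each comparison, hosts with at least 2 reads in each library of a line and 0 in the other line of its pair, and up to 4 other called chromatin genes per pair. Others (Baz1b, Smarcc1, Phf20l1, Chd7, Setd2, Kmt2c, Hdac8, Ino80) were named after their values were seen. Some genes that the rule names are not reported here. The members and lists were chosen with earlier results of these data known. Alternatives were RLE factors, total-read scaling, omitting the filter, filtering at 10 counts, DESeq2 1.42.0, limma-voom (limma 3.58.1), thinning, a replicate block and leaving out each library. Circle-level interactions, reads recovered from RPM and the share without the Phf21a circle were chosen after seeing the data. The fits were tested on simulated data.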

Additional observations from a re-analysis of the deposited data

Results flagged for a closer look

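Both results were picked out because the tumour against non-tumour difference of a circle differed between the mammary and melanocyte pairs in the edgeR interaction test, which was itself added after seeing the data. The Ncoa2 circle of exons 2 to 4 had an interaction of 2.46 on the log2 scale (SE 0.55, edgeR adjusted p = 0.00239), with a difference of 1.33 in the mammary pair and -1.13 in the melanocyte pair. The alternatives gave 1.76 to 2.75, and the adjusted p was above the threshold only without 4T1 replicate 3, which held 35 of its 4T1 reads, against 4 and 9 in replicates 1 and 2.

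The Phf21a circle of exons 2 to 6 had an interaction of 9.13 (SE 2.82, edgeR adjusted p = 0.03), a size that depends on the prior count because Eph4-ev had no read. Its reads sat in 4 libraries: 4T1 replicate 2, B16F10 replicate 1 and Melan-a replicates 1 and 2. Without 4T1 replicate 2 the interaction was 1.20 (edgeR adjusted p = 1.0), and the call was also lost with a minimum count of 10 (adjusted p = 0.0686) and with limma-voom (0.539). What sets these libraries apart was not tested.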

How the results depend on the processing

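At host level 1 chromatin host was higher in 4T1 by edgeR. The count was 3 of 35 tested with total-read scaling and 4 of 22 with a minimum count of 10. It was 0 of 35 with DESeq2 and 5 of 35 with limma-voom. Without any 1 library it was 0 to 2 (2 without 4T1 replicate 1, 0 without Eph4-ev replicate 2). The host called without 4T1 replicate 2 or without Eph4-ev replicate 3 was not Phf21a, nor were the 5 with limma-voom. Over all hosts 119 of 1515 were higher with total-read scaling and 104 of 960 with a minimum count of 10. With DESeq2 96 of 1515 were higher, and with limma-voom 146 of 1515 (main 104 of 1515). Chromatin hosts lower in 4T1 numbered 0, but 2 of 64 with no filter, 1 of 22 with a minimum count of 10 and 1 of 35 with limma-voom. Without any 1 library they numbered 0 to 1 (1 without 4T1 replicate 3). Over all hosts those lower numbered 207 of 3617 with no filter, 133 of 960 with a minimum count of 10 and 194 of 1515 with limma-voom (main 161). Of single circles of chromatin hosts 0 were higher in 4T1, but 1 of 193 with no filter, 1 of 18 with a minimum count of 10 and 1 of 37 with limma-voom. In the same order 72 of 9492, 104 of 983 and 180 of 1869 of all circRNAs were higher. Without any 1 library 0 to 1 of these circles were higher, against 30 to 81 of all circRNAs. Those lower numbered 0, but 1 of 193 with no filter and 1 of 37 with limma-voom, against 207 of 9492 and 274 of 1869 of all circRNAs. Without any 1 library they numbered 0 to 1, against 42 to 173 of all circRNAs. Lower in B16F10 were 0 chromatin hosts, but 1 of 62 with no filter and 1 of 11 with a minimum count of 10. Without any 1 library they numbered 0 to 1 (1 without B16F10 replicate 1 or Melan-a replicate 2), against 13 to 63 of all hosts. The 1 circle lower there became 0 to 2 without any 1 library, where 20 to 73 of all circRNAs were lower. The circle called with no filter or without B16F10 replicate 1 was not the Ncoa2 circle of the main fit.

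Host-level interactions more positive in the mammary pair numbered 0, but 1 with no filter or a minimum count of 10, and 0 to 1 without any 1 library, and more negative ones 0 to 1. The 2 circle-level ones became 1 with a minimum count of 10 or limma-voom, and 1 to 2 without any 1 library. Of the other chromatin genes, the 3 higher in 4T1 became 0 with no filter and 0 to 1 without any 1 library, the 5 lower became 3 to 6, the 1 higher in B16F10 became 2 with DESeq2 and 1 to 5, and the 2 lower became 1 to 3. The causes were not tested.

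Scaling by total reads alone moved the median log2 difference of all hosts to 0.04 in the mammary pair (main -0.09) and 0.11 in the melanocyte pair (main -0.00), and that of the chromatin hosts to 0.15 and 0.42. With it 36 hosts were higher and 32 lower in B16F10 (main 25 and 39), and 142 circRNAs higher and 176 lower in 4T1 (main 112 and 213). Without any 1 library, 31 to 91 of all hosts were higher and 42 to 170 lower in 4T1, and 16 to 60 higher and 13 to 63 lower in B16F10.

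Replicate numbers are shared between lines, but deviations of same-numbered libraries did not move together (Pearson r across genes -0.040 to 0.020 in the mammary and -0.081 to -0.0020 in the melanocyte pair). The main fits therefore used no pairing. Such correlations cannot show whether the libraries were made in numbered sets. With the replicate number as a block, 2 of 35 chromatin hosts were higher and 1 lower in 4T1. Over all 1515 hosts 82 were higher and 135 lower there with the block. With it 1 chromatin host was lower in B16F10, and 1 host-level interaction of a chromatin host was more positive.

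Among the named genes followed through the alternatives, the sign changed for 5 hosts, with main log2 differences between -0.17 (Hdac4, melanocyte pair) and 0.36 (Kdm1a, melanocyte pair). Other tested hosts were not followed in this way. Setd3 in the mammary pair was -0.011 with RLE factors, -0.18 with no filter, -0.011 with DESeq2, -0.015 with the block and -0.22 to 0.20 without any 1 library. Ncoa6 there was -0.0014, -0.18, -0.0053 and -0.021 under the same 4 and -0.36 to 0.13 without any 1 library. Kmt2a was 0.075 after thinning and -0.52 to 0.18 without any 1 library. In the melanocyte pair Kdm1a was -0.024 after thinning, and Hdac4 was -0.35 to 0.13 without any 1 library. Just past the threshold in some alternatives were Hdac4 in the mammary pair (7 of 14, lowest adjusted p 0.0202), Baz1a (4 of 14, 0.0320) and Ncoa2 in the melanocyte pair (2 of 14, 0.0337). Chd2 in the mammary pair passed in 2 of 14, and the host interactions of Kmt2e in 1 of 18 and of Ncoa2 in 1 of 19. For Phf21a the melanocyte host difference passed in 3 of 14 (lowest adjusted p 0.000733) and the host interaction in 8 of 19 (3.27e-29, with no filter). With the block these were -2.22 (edgeR adjusted p = 0.0202) and 6.42 (0.00018).

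Depth limits these comparisons: a chromatin host had a median of 69 reads over the 6 mammary libraries and 52 over the 6 melanocyte libraries, and 29 listed hosts in the mammary table and 48 in the melanocyte table were too low for the test.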
